A study of Mus musculus with 32 samples.

Results

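The RNA of whole lungs was compared between mice that received World Trade Center particulate matter (WTCPM) together with dexamethasone and mice that received WTCPM alone. The comparison takes the 16 samples whose labels name these 2 groups, out of 32 in the series. They come from 8 of 16 mice, with 4 mice a side, and the 2 samples of a mouse are 2 sequencing lanes of the same library. All mice were wild-type (WT) male C57BL/6J mice of 6 to 8 weeks. WTCPM is dust gathered at Ground Zero, and both groups received it by instillation into the nose. The dexamethasone group also received dexamethasone by intraperitoneal injection at 0.1 mg/kg. The remaining mice of the series were 4 healthy controls, with neither dust nor drug, and 4 mice given WTCPM and, by intraperitoneal injection, 5 mg/kg of rosoxacin, a quinolone antibiotic. These control and rosoxacin mice also entered the statistical fit, which held all 4 groups. The amount of dust, any vehicle injection and the time from treatment to collection are not stated in the sources used here.

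Dexamethasone is a synthetic glucocorticoid. It binds the glucocorticoid receptor, a transcription factor that enters the nucleus, raises transcription at DNA elements built around AGAACA and its reverse complement, and lowers the transcription of many cytokine and chemokine genes. In inflamed airways glucocorticoids are known for reducing cytokine production and eosinophil numbers, and in blood for raising neutrophil numbers.

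The deposited values are FPKM, the fragments per kilobase of transcript at equal sequencing depth, and were averaged over the 2 lanes of a mouse and summed over the transcripts of a gene. Of the 54640 features in the table, 28335 are assembled loci without a gene name and 26305 are annotated genes, which together hold 0.114% of all FPKM and reach a mean of at most 4.05 FPKM. Tested were the 2749 annotated genes whose 16-mouse mean reached 0.1 FPKM, among them 870 protein-coding genes, 1035 pseudogenes and 304 long intergenic RNAs. Of 66 listed genes that glucocorticoids are known to induce, 4 have an identifier of their own and 2 passed this minimum. Likewise, of the defining markers of macrophages, T and NK cells, B cells, muscle and mesothelium none has an identifier of its own, and of the 8 lung epithelial markers only Spdef was measured, so that the labelled tissue could not be checked by its markers. If the commonest step between low values is 1 read, the 2 lanes of a mouse together held 18.71 to 21.56 M reads in the WTCPM group and 17.49 to 26.82 M reads in the dexamethasone group. In RNA of a whole organ, fewer cells of a type and less RNA per cell cannot be told apart, and the p-values below measure the spread between mice, since the labels name separate animals.

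No annotated gene passed the test. With limma on log2(FPKM + 0.1), 0 of 2749 genes (0%) had an adjusted p under 0.05 (Benjamini-Hochberg), and the smallest adjusted p in limma was 0.382. The fit held all 4 groups, so its p-values and SEs also carry the spread of the control and rosoxacin mice. The n = 4 beside an SE counts the mice of each group compared. At an unadjusted p under 0.05 there were 148 genes (5.38%), of which 68 had a higher mean after dexamethasone (2.47%) and 80 a lower one (2.91%). With the 2 groups fitted alone, 187 genes reached that p, 89 higher and 98 lower, and the smallest adjusted p in limma was 0.18. In 112 genes (4.07%) all 4 mice of one group lay above all 4 of the other, 48 of them higher (1.75%) and 64 lower (2.33%) after dexamethasone. The median log2 change over all 2749 genes was 0.004. Every gene named below therefore failed the adjusted threshold, and the adjusted p beside it is over all 2749 genes. Fold changes are ratios of group means of FPKM. Log2 changes are on the log2(FPKM + 0.1) scale, which understates the change of low genes.

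**Figure D1:**
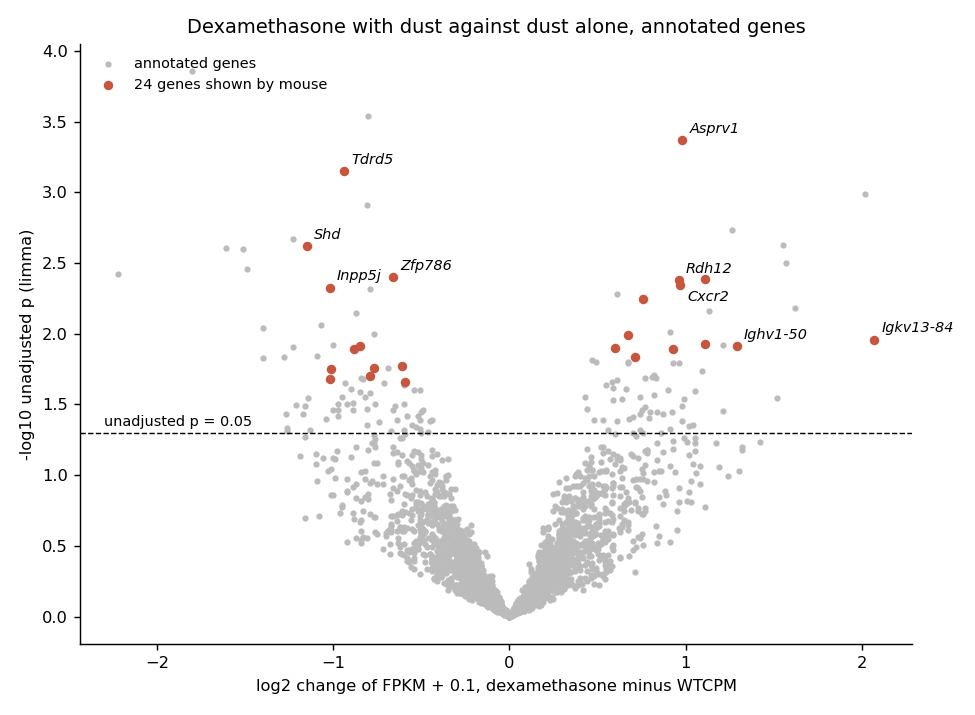
Log2 change of FPKM + 0.1 (dexamethasone minus WTCPM, x axis) against the negative log10 of the unadjusted p from limma (y axis) for the 2749 annotated genes, 1 point a gene, with the 24 genes described by mouse in red. The 68 genes on the right and 80 on the left above the dashed line have an unadjusted p under 0.05, and none passed after adjustment.

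Cxcr2 and Asprv1, both expressed by neutrophils, were higher in each dexamethasone mouse than in any WTCPM mouse, as were 1.75% of all genes tested. Cxcr2 encodes the receptor through which neutrophils follow CXC chemokines (ENSMUSG00000026180.8, chromosome 1, 74153989 to 74161246, plus strand, mm10). Its level was 0.588, 0.599, 0.366 and 0.511 FPKM in the 4 WTCPM mice and 1.61, 0.941, 1.12 and 0.829 FPKM in the 4 dexamethasone mice. The lowest dexamethasone mouse thus lay above the highest WTCPM mouse. The mean was 2.18-fold higher (0.516 ± 0.107 against 1.13 ± 0.344 FPKM, SD, n = 4 each), a log2 change of 0.97 ± 0.30 (SE) with an adjusted p of 0.631 in limma. The exact two-sided permutation p was 0.0286, the smallest that 4 against 4 mice allow. Any gene without overlap of the groups has this p, so it adds nothing to the non-overlap. Of all 2749 genes, 112 (4.07%) did not overlap. By the step between low values, these levels correspond to 22.9 to 31.4 reads per mouse in the WTCPM group and 57.5 to 78.9 in the dexamethasone group, depending on the transcript. Healthy controls had 0.531 ± 0.255 FPKM and rosoxacin mice 0.854 ± 0.349 FPKM (SD, n = 4 each). The rosoxacin mice, at 1.37, 0.652, 0.737 and 0.651 FPKM, also lay above every WTCPM mouse.

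Asprv1, an aspartic protease gene of epidermis that neutrophils also express, had the smallest p of the genes with an established name (ENSMUSG00000033508.7, chromosome 6, 86628164 to 86629710, plus strand). It was at 0.285, 0.325, 0.241 and 0.241 FPKM with WTCPM alone and at 0.735, 0.741, 0.637 and 0.462 FPKM with dexamethasone. Again the groups did not overlap. The difference was 2.36-fold (0.273 ± 0.0404 against 0.644 ± 0.131 FPKM, SD, n = 4 each), a log2 change of 0.98 ± 0.23 (SE), with an adjusted p of 0.391 in limma. In healthy controls the level was 0.179 ± 0.0362 FPKM and in rosoxacin mice 0.323 ± 0.118 FPKM (SD, n = 4 each), so that the dexamethasone mean was the highest of the 4 groups. Trem3, a receptor of myeloid cells, was less even: 0.232, 0, 0.285 and 0.474 FPKM without the drug and 0.811, 0.555, 0.155 and 0.509 FPKM with it, with overlapping groups and adjusted p = 0.95 in limma.

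The list of neutrophil genes, whose members were chosen with earlier results known, holds 40 genes. Of these, 14 have an identifier of their own and 4 were tested. Cxcr2, Asprv1 and Trem3 had a higher mean after dexamethasone and Cxcl2 a lower one. At an unadjusted p under 0.05 stood 2 of the 4, both higher, against 2.47% of all genes tested. The median log2 change was 0.94, beside 0.004 over all genes. The summed level of the 4 genes ran from 1.13 to 1.99 FPKM in the WTCPM mice and from 2.13 to 3.43 FPKM in the dexamethasone mice. Ly6g, a surface marker that defines mouse neutrophils, fell below the minimum: it was listed at 0 in all 4 WTCPM mice and at 0.0416, 0, 0.134 and 0 FPKM in the dexamethasone mice. Whether the number of neutrophils differed was not tested.

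**Figure D2:**
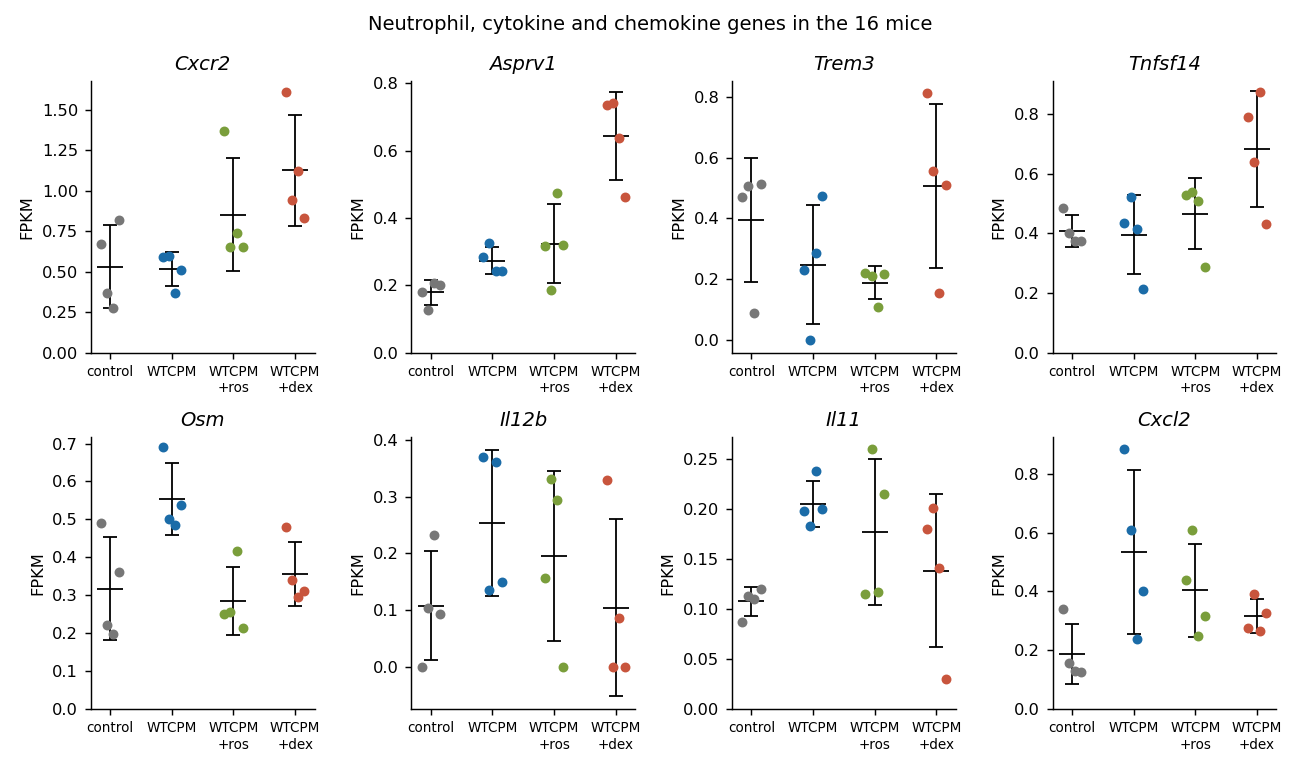
FPKM of 8 neutrophil, cytokine and chemokine genes (y axis, 1 panel a gene) in the 4 groups (x axis), with 1 point a mouse, the group mean as a bar and the SD as whiskers (n = 4 mice). Cxcr2 and Asprv1 show dexamethasone mice above every WTCPM mouse, Osm shows them below, and in the other panels the 2 groups overlap.

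The 250 bases before the start sites of Cxcr2 and Asprv1 are shown, with each AGAACA or TGTTCT in capitals. Whether the glucocorticoid receptor acts on either gene was not tested. The sequences are RefSeq's on GRCm38.p6, 5′ to 3′ on the plus strand that carries both genes, at chr6:86627924-86628173 and chr1:74153744-74153993.
Asprv1: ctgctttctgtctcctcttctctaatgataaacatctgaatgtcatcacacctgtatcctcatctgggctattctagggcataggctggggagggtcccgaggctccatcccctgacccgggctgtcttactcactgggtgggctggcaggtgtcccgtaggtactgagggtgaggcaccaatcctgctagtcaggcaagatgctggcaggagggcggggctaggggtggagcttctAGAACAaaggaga
Cxcr2: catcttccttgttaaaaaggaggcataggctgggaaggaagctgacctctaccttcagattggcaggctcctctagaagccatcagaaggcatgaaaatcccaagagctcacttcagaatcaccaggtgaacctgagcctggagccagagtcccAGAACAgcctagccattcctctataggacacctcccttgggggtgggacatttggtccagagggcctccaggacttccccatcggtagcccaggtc
Each holds 1 copy of AGAACA, whose first base lies at -13 from the start in Asprv1 and at -96 in Cxcr2. Over the promoter windows of the RefSeq table (250 bases before to 50 after the start, both strands), 6233 of 32851 (19%) hold AGAACA or TGTTCT. The full palindrome of AGAACA, any 3 bases and then TGTTCT is in 3 windows (0.00913%) and in neither of these. Of the 12 genes with a higher mean named here, 5 have a window in the table and 2 of the 5 windows hold the 6-base motif. Of the 12 with a lower mean, 8 genes have 13 windows, and 3 windows hold it (Gabrr2, Synpo2l and Zfp786). A match to so short a motif describes the letters and not a bound site.

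Of the 6 cytokine genes tested, 5 had a lower mean with dexamethasone and 1 a higher one. The cytokine list holds 51 genes, of which 24 have an identifier of their own. Over all 2749 genes, 1358 had a lower and 1388 a higher mean. The median log2 change of the 6 was -0.41, and 1 of them had an unadjusted p under 0.05, against 2.91% of all genes lower at that p. Osm encodes oncostatin M, a cytokine of the gp130 family made by myeloid cells. It was at 0.691, 0.5, 0.484 and 0.538 FPKM with dust alone and at 0.48, 0.341, 0.294 and 0.31 FPKM with dexamethasone. The 4 dexamethasone mice lay below the 4 WTCPM mice, though the highest of them nearly met the lowest WTCPM mouse. The ratio of means was 0.643 (log2 change -0.53 ± 0.24, SE, n = 4 each) with an adjusted p of 0.911 in limma. Healthy controls had 0.316 ± 0.136 FPKM and rosoxacin mice 0.284 ± 0.0899 FPKM (SD, n = 4 each). The rosoxacin mice, at 0.251, 0.255, 0.415 and 0.213 FPKM, also lay below every WTCPM mouse.

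Il12b, the subunit shared by interleukins 12 and 23, was at 0.37, 0.135, 0.361 and 0.15 FPKM without and 0.33, 0, 0.0858 and 0 FPKM with dexamethasone. Of the dexamethasone mice, 1 was as high as the WTCPM mice while 2 were listed at 0, and the adjusted p was 0.95 in limma. Il11, a further gp130 cytokine, was at 0.198, 0.183, 0.238 and 0.2 FPKM against 0.18, 0.201, 0.141 and 0.0295 FPKM (adjusted p = 0.95 in limma). The exception was Lta, lymphotoxin alpha of lymphocytes, with a mean of 0.0575 ± 0.052 against 0.13 ± 0.0551 FPKM (SD, n = 4 each, adjusted p = 0.95 in limma). By the step between low values, this is about 1.55 against 3.83 reads per mouse. Lta reached the minimum of 0.1 FPKM only through the control and rosoxacin mice. It had the other sign in 1 of the 23 alternative analyses.

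Among ligands of the tumor necrosis factor family, 3 of 4 had a higher mean after dexamethasone, beside 1388 of all 2749 genes. These were Tnfsf14, Fasl and Lta, the last of which is also counted among the cytokines above, with the limit given there. Tnfsf14, also called LIGHT, a costimulatory ligand of T cells, was at 0.436, 0.523, 0.413 and 0.212 FPKM in WTCPM mice and at 0.789, 0.64, 0.874 and 0.431 FPKM in dexamethasone mice. A single dexamethasone mouse lay within the WTCPM range, and the means differed 1.73-fold with an adjusted p of 0.866 in limma. Fasl, the death ligand of cytotoxic lymphocytes, had 0.304 ± 0.0486 against 0.515 ± 0.164 FPKM (SD, n = 4 each, adjusted p = 0.95 in limma). Cd40lg, the ligand by which helper T cells activate B cells, pointed down, at 0.155 ± 0.0987 against 0.0767 ± 0.0892 FPKM (SD, n = 4 each, adjusted p = 0.95 in limma). The median of the list was 0.58 on the log2 scale.

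Chemokine genes showed no common direction. Of 5 tested, 3 had a higher and 2 a lower mean (2 and 3 after rescaling to TPM), and none reached an unadjusted p of 0.05. Cxcl2, a ligand of Cxcr2 that recruits neutrophils, was at 0.886, 0.61, 0.237 and 0.403 FPKM with dust alone and at 0.277, 0.392, 0.265 and 0.328 FPKM with dexamethasone. The dexamethasone mice were close together at the low end of the WTCPM range, and the adjusted p was 0.95 in limma. Ccl20, which attracts Ccr6-bearing lymphocytes, had means of 0.271 ± 0.0855 and 0.359 ± 0.114 FPKM, and Cxcl5, a further neutrophil chemokine, 0.192 ± 0.0758 and 0.191 ± 0.108 FPKM in the WTCPM and dexamethasone groups (SD, n = 4 each).

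Of 7 chemokine and chemoattractant receptors, Cxcr2 alone had an unadjusted p under 0.05, against 5.38% of all genes. Xcr1, which marks cross-presenting dendritic cells, had 0.589 ± 0.0488 against 0.5 ± 0.137 FPKM (SD, n = 4 each, adjusted p = 0.95 in limma). C3ar1, the receptor of the complement fragment C3a, had 1.13 ± 0.134 against 1.02 ± 0.134 FPKM (SD, n = 4 each, adjusted p = 0.952 in limma).

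Among pattern recognition receptors, 4 of 6 had a lower mean, the log2 changes ran from -0.38 to 0.09, and none had an unadjusted p under 0.05. Tlr11, which senses profilin of parasites, had the lowest log2 change, at 0.339 ± 0.109 against 0.232 ± 0.0492 FPKM (SD, n = 4 each, adjusted p = 0.95 in limma). Tlr9, the sensor of unmethylated DNA, had 0.708 ± 0.141 against 0.623 ± 0.139 FPKM (SD, n = 4 each, adjusted p = 0.955 in limma).

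Genes of eosinophils, basophils and mast cells were near the detection minimum. Of 9 defining markers 7 have an identifier, and only Gata1 and Il5ra were tested. Il5ra, the interleukin 5 receptor subunit of eosinophils, was at 0.14, 0.158, 0 and 0.135 FPKM in WTCPM mice and at 0.16, 0.223, 0.122 and 0.328 FPKM in dexamethasone mice, with overlapping groups and adjusted p = 0.95 in limma. Epx and Prg2, which encode eosinophil granule proteins, did not exceed 0.0255 and 0 FPKM in any of the 8 mice, and Ccr3, the eosinophil chemokine receptor, did not exceed 0.0833 FPKM.

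Of the list of known glucocorticoid targets, 2 genes were measured, and neither had an unadjusted p under 0.05. Il22ra1, the epithelial receptor of interleukin 22, had 0.313 ± 0.0534 against 0.368 ± 0.0574 FPKM (SD, n = 4 each, adjusted p = 0.961 in limma, with the opposite sign in 1 of 23 alternatives). Adora1, the A1 adenosine receptor, had 0.763 ± 0.0926 against 0.722 ± 0.131 FPKM (SD, n = 4 each, adjusted p = 0.984 in limma). Saa1, an acute-phase protein gene, was at 0.318, 0.24, 0.2 and 0.386 FPKM without the drug and at 0.927, 0.265, 0.745 and 0.1 FPKM with it. The dexamethasone mice thus held both the highest and the lowest value of Saa1 (adjusted p = 0.95 in limma), all above the mean of 0.0204 ± 0.0134 FPKM in healthy controls (SD, n = 4). Pomc, the precursor of adrenocorticotropin, had an adjusted p of 0.984 in limma.

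By the naming rule, the 12 genes with a higher mean and smallest p hold 5 further genes that encode proteins outside the antigen receptors. Rdh12, a retinal reductase, was at 0.304, 0.148, 0.264 and 0.29 FPKM in WTCPM mice and at 0.509, 0.587, 0.624 and 0.573 FPKM in dexamethasone mice. Its groups were far apart, 2.28-fold in the means (log2 change 0.96 ± 0.29, SE, n = 4 each), with an adjusted p of 0.631 in limma. Healthy controls stood between them, at 0.444 ± 0.133 FPKM (SD, n = 4). Calhm6, of the calcium homeostasis modulator family, was at 0.141, 0.258, 0.0487 and 0.0846 FPKM against 0.334, 0.626, 0.28 and 0.331 FPKM (adjusted p = 0.861 in limma). In Calhm6 too the groups did not overlap, and controls had 0.471 ± 0.36 FPKM (SD, n = 4).

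P2rx2, an ion channel opened by extracellular ATP, was at 0.16, 0.0555, 0 and 0.0799 FPKM with dust and at 0.344, 0.186, 0.185 and 0.161 FPKM with dexamethasone (adjusted p = 0.861 in limma). The groups only just cleared each other, by 0.16 against 0.161 FPKM. Slc14a1, a urea transporter of red cells and endothelium, was at 0.217, 0.346, 0.329 and 0.142 FPKM against 0.511, 0.579, 0.308 and 0.462 FPKM (adjusted p = 0.861 in limma). Ttll13, which adds glutamate chains to tubulin, was at 0.192, 0.619, 0.682 and 0.394 FPKM against 0.797, 1.03, 0.694 and 0.616 FPKM (adjusted p = 0.866 in limma). In Slc14a1 and Ttll13 the groups overlapped by 1 dexamethasone mouse. The remaining 3 outside the antigen receptors are the pseudogenes Rps7-ps1 (2.69-fold), Rpl31-ps1 (1.87-fold) and Gad1-ps (1.72-fold), whose reads cannot be told apart from those of near-identical copies with certainty.

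Of the 12 genes with a lower mean, Tdrd5 had the smallest p (ENSMUSG00000060985.15, chromosome 1, 156255296 to 156303664, minus strand). Tdrd5 encodes a tudor domain protein of the germ line that works with small RNAs against transposons. It was at 0.319, 0.447, 0.403 and 0.244 FPKM in WTCPM mice and at 0.121, 0.104, 0.131 and 0.18 FPKM in dexamethasone mice. The groups did not overlap, and the dexamethasone mean was 0.379 of the WTCPM mean (log2 change -0.94 ± 0.23, SE, n = 4 each, adjusted p = 0.486 in limma). Healthy controls, at 0.261 ± 0.0583 FPKM (SD, n = 4), lay between. Tdrd5 overlaps the predicted genes A430050A11Rik and 4930518J20Rik, so its reads are uncertain. Pld6, a mitochondrial enzyme of the same small RNA pathway, was at 0.872, 0.661, 0.925 and 0.583 FPKM against 0.402, 0.404, 0.445 and 0.594 FPKM (adjusted p = 0.866 in limma), with 1 dexamethasone mouse inside the WTCPM range.

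Zfp786, a zinc finger protein, was at 0.343, 0.335, 0.23 and 0.373 FPKM with dust and at 0.185, 0.149, 0.151 and 0.167 FPKM with dexamethasone. All dexamethasone mice lay below the WTCPM mice at a ratio of 0.509 (log2 change -0.66 ± 0.20, SE, n = 4 each, adjusted p = 0.631 in limma), and rosoxacin mice had 0.14 ± 0.0327 FPKM (SD, n = 4). Of 13 zinc finger genes tested, 9 had a lower and 4 a higher mean (10 and 3 after rescaling to TPM), with a median log2 change of -0.19, and Zfp786 alone had an unadjusted p under 0.05, against 5.38% of all genes. Inpp5j, a phosphatase of inositol phospholipids, was at 0.286, 0.214, 0.183 and 0.143 FPKM against 0.0498, 0.0501, 0.0364 and 0.0624 FPKM (adjusted p = 0.631 in limma). Inpp5j was at 0.241 of the WTCPM level, without overlap of the groups, at a locus that overlaps Pla2g3 on the other strand. Shd, an adaptor protein with a Src homology domain, was at 0.382, 0.135, 0.391 and 0.197 FPKM against 0.146, 0.0521, 0.0821 and 0 FPKM (adjusted p = 0.575 in limma, with overlap of 1 mouse).

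The other named genes of lower mean include genes of muscle and nerve. Synpo2l, a protein of the muscle Z-disc, was at 0.338, 0.265, 0.238 and 0.363 FPKM in WTCPM mice and at 0.0614, 0.197, 0.0679 and 0.17 FPKM in dexamethasone mice (adjusted p = 0.861 in limma). Gabrr2, a receptor subunit for the transmitter GABA, was at 0.386, 0.393, 0.439 and 0.254 FPKM against 0.0728, 0, 0.334 and 0.27 FPKM (adjusted p = 0.866 in limma). Pianp, a neural membrane protein, was at 0.192, 0.272, 0.214 and 0.193 FPKM against 0.0163, 0.0665, 0.12 and 0.159 FPKM (adjusted p = 0.866 in limma). Synpo2l and Pianp were lower in all 4 dexamethasone mice than in any WTCPM mouse, and Gabrr2 was not. Sertad4, whose locus overlaps Gm15867, had 0.626 ± 0.0808 against 0.398 ± 0.155 FPKM (SD, n = 4 each). The last 3 of the 12 are pseudogenes by GENCODE type, with the same limit on their reads as those of higher mean. They are Mospd4, at 0.191 ± 0.0591 against 0.0641 ± 0.0447 FPKM (SD, n = 4 each), Gsdmcl-ps, at a ratio of 0.504, and Rpl26-ps6, at a ratio of 0.29.

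**Figure D3:**
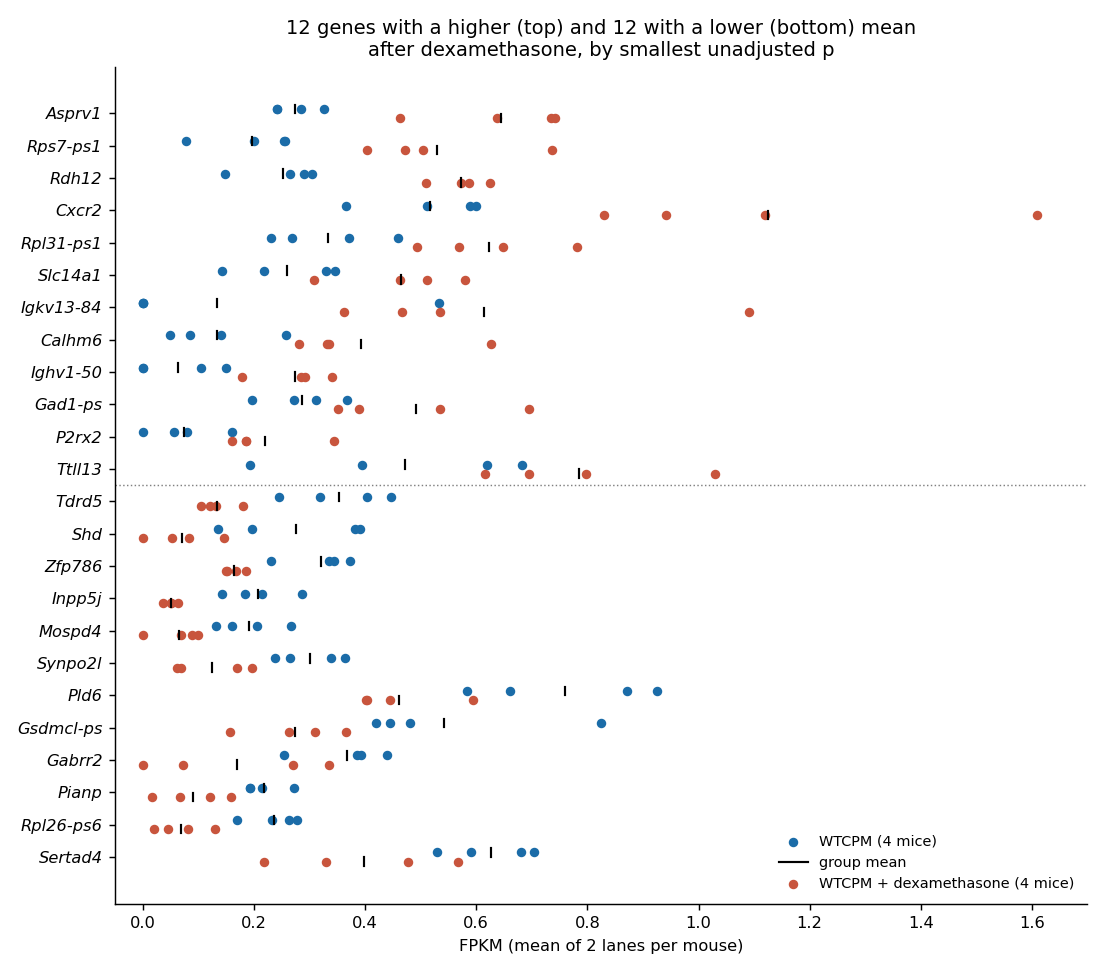
FPKM (x axis, mean of 2 lanes) of the 24 genes named by smallest unadjusted p (y axis), with 1 point for each of the 4 WTCPM mice in blue and the 4 dexamethasone mice in red and the group mean as a vertical bar. Asprv1, Rdh12, Cxcr2, Tdrd5, Zfp786 and Inpp5j are among the rows where the colors separate; Igkv13-84, Ttll13 and Gabrr2 are among those where they overlap.

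Variable segments of antigen receptors carry the rearranged part of antibodies and T cell receptors, and their levels follow which lymphocyte clones a lung holds. Of 55 immunoglobulin variable segments tested, 36 had a higher and 18 a lower mean after dexamethasone (35 and 19 after rescaling to TPM), with a median log2 change of 0.19. At an unadjusted p under 0.05 stood 3 higher segments and 1 lower one, 7.27% of the 55 against 5.38% of all genes. Of these 4, 2 are pseudogenes by GENCODE type, Ighv1-2 and Igkv1-108. Their summed level overlapped, from 7.36 to 13.1 FPKM with dust and from 9.4 to 14.5 FPKM with dexamethasone. Segments share near-identical sequence, so how reads were divided between them is uncertain.

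Igkv13-84, a kappa light chain segment, was at 0, 0, 0 and 0.533 FPKM in WTCPM mice and at 0.535, 0.361, 0.466 and 1.09 FPKM in dexamethasone mice (adjusted p = 0.861 in limma). Ighv1-50, a heavy chain segment, was at 0.15, 0, 0.105 and 0 FPKM against 0.179, 0.341, 0.285 and 0.292 FPKM (adjusted p = 0.861 in limma), without overlap. Controls had more, 0.676 ± 0.497 FPKM (SD, n = 4). Ighv1-2, the pseudogene whose locus overlaps Mir7094-1, was the lower one, at 0.135, 0.117, 0.242 and 0.266 FPKM against 0, 0.0931, 0 and 0 FPKM (adjusted p = 0.911 in limma). These levels correspond to fewer than 5 reads per mouse on average in either group, so that single reads weigh on each value.

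Of 17 T cell receptor variable segments, 13 had a higher and 4 a lower mean, beside 1388 and 1358 of all 2749 genes. The median log2 change was 0.45, beside 0.004 over all genes. Not all of the 17 would reach the minimum on the 8 mice compared. The summed level of the 17 ran from 2.08 to 3.97 FPKM with dust and from 3.44 to 4.73 FPKM with dexamethasone. Only Trbv3 had an unadjusted p under 0.05, 5.88% of the 17 against 5.38% of all genes, and it was lower: 0.202, 0.563, 0.587 and 0.751 FPKM against 0.468, 0, 0.527 and 0 FPKM (adjusted p = 0.911 in limma). Trbv1 was at 0, 0.236, 0.223 and 0.166 FPKM against 0.369, 0.619, 0.178 and 0.243 FPKM (adjusted p = 0.95 in limma). Both pairs of groups overlapped, and Trbv1 had the other sign in 1 of the 23 alternatives. Trbv3 and Trbv1 correspond to 1.3 to 4.82 reads per mouse on average in either group, so that single reads weigh on these values too. The defining markers of T and NK cells and of B and plasma cells have no identifier of their own, so their part in these sums was not tested. Of 6 T and NK cell genes, Fasl and Cd40lg among them, 4 had a higher mean, with Pdcd1, an inhibitory receptor, at 0.0893 ± 0.0686 against 0.164 ± 0.0629 FPKM (SD, n = 4 each, adjusted p = 0.95 in limma).

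**Figure D4:**
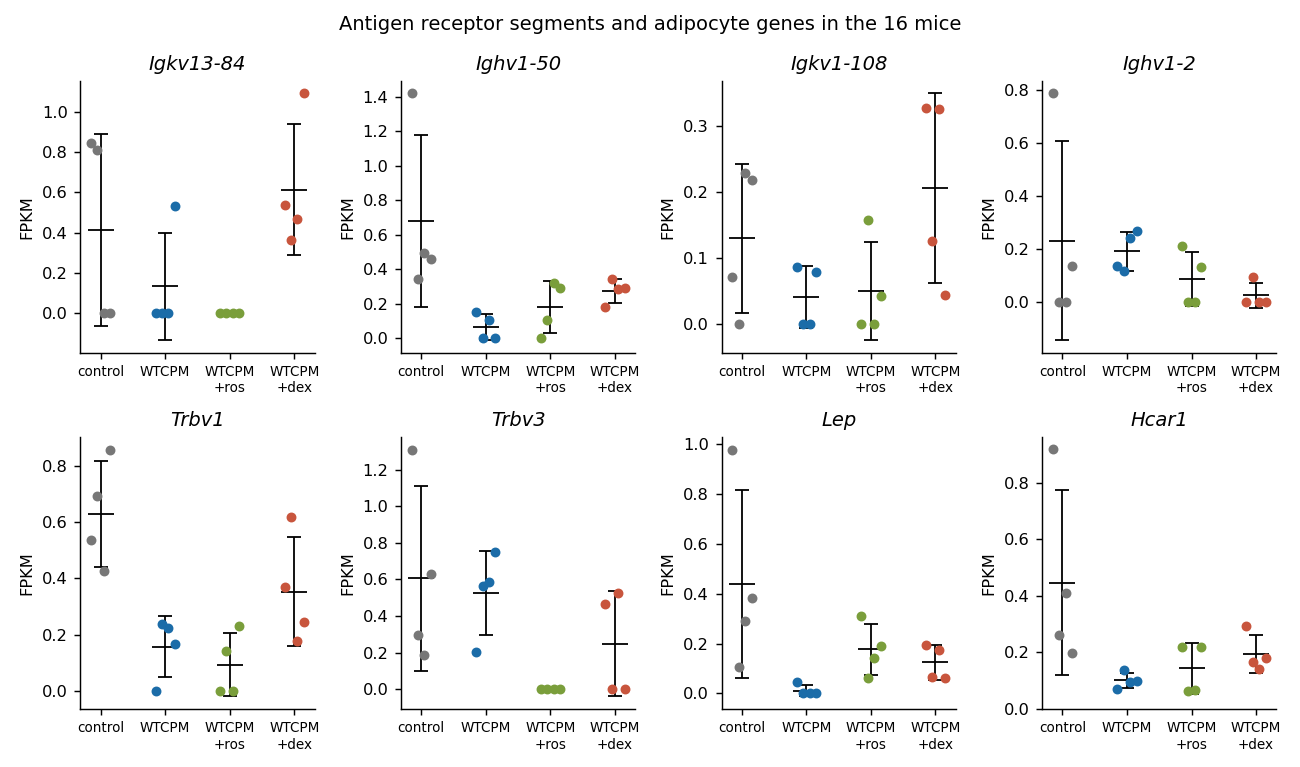
FPKM of 6 antigen receptor segments and 2 adipocyte genes (y axis, 1 panel a gene) in the 4 groups (x axis), with 1 point a mouse, the group mean as a bar and the SD as whiskers (n = 4 mice). Single mice set several group means, as the control mouse with the highest Lep or the WTCPM mouse at 0.533 FPKM of Igkv13-84.

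Of 4 adipocyte genes tested, Lep and Hcar1 separated the groups. Lep, the fat cell hormone leptin, was at 0.0471, 0, 0 and 0 FPKM in WTCPM mice and at 0.196, 0.0658, 0.173 and 0.0639 FPKM in dexamethasone mice (adjusted p = 0.866 in limma). Depending on the transcript, this implies about 0.0964 to 0.748 reads per WTCPM mouse and 1.26 to 9.81 per dexamethasone mouse. With means of 0.0118 and 0.125 FPKM in these groups, Lep reached the minimum of 0.1 FPKM only through the control and rosoxacin mice. Hcar1, the lactate receptor of fat cells, was at 0.07, 0.137, 0.0953 and 0.0987 FPKM against 0.293, 0.165, 0.14 and 0.181 FPKM (adjusted p = 0.95 in limma). In both genes all dexamethasone mice lay above all WTCPM mice, as 1.75% of all genes did. Healthy controls had 0.438 ± 0.378 FPKM of Lep and 0.447 ± 0.326 FPKM of Hcar1 (SD, n = 4 each), above the means of both groups compared. Ebf2 and Dio2, genes of brown fat, went the other way, with lower means after dexamethasone. Ebf2 had 0.101 ± 0.0262 against 0.0727 ± 0.0515 FPKM (SD, n = 4 each, log2 change -0.25, adjusted p = 0.961 in limma), and it too reached the minimum only through the control and rosoxacin mice. Dio2 had 0.144 ± 0.0649 against 0.136 ± 0.02 FPKM (SD, n = 4 each, log2 change -0.01, adjusted p = 0.995 in limma). The sign of Dio2 was the opposite in 7 of the alternative analyses. The other 6 defining adipocyte markers, among them Adipoq and Plin1, have no identifier of their own, and whether fat tissue was present in the samples was not tested.

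Of 6 interferon-induced genes, 4 had a higher mean and 1, also higher, an unadjusted p under 0.05, against 2.47% of all genes higher at that p. Apol11b, of the apolipoprotein L family, was at 0.313, 0.229, 0.516 and 0.388 FPKM against 0.609, 0.853, 0.665 and 0.722 FPKM (adjusted p = 0.866 in limma), without overlap, and at 0.678 ± 0.0849 FPKM in healthy controls (SD, n = 4). The related Apol9a pointed the other way, at 0.526 ± 0.148 against 0.474 ± 0.25 FPKM (SD, n = 4 each, adjusted p = 0.967 in limma). Family members share sequence, and reads may be divided between them.

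Genes of cell division had a lower mean in 9 of 13 cases, with a median log2 change of -0.10, and none had an unadjusted p under 0.05. Ttk, a kinase of the spindle checkpoint, was at 0.373 ± 0.174 against 0.251 ± 0.13 FPKM, and Depdc1a, a mitotic protein, at 0.205 ± 0.0839 against 0.139 ± 0.0629 FPKM (SD, n = 4 each). Prr11, which acts in cell cycle progression, was at 0.566, 0.338, 0.334 and 0.417 FPKM with dust and at 0.307, 0.355, 0.3 and 0.304 FPKM with dexamethasone (adjusted p = 0.95 in limma). The dexamethasone values of Prr11 lay within or below the range of the dust values, beside 0.176 ± 0.0707 FPKM in controls (SD, n = 4).

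Matrix genes followed no single direction, with 7 of 11 lower and no unadjusted p under 0.05. P4ha3, a collagen prolyl hydroxylase subunit, was at 0.701, 0.327, 0.333 and 0.179 FPKM against 0.24, 0.257, 0.233 and 0.148 FPKM (adjusted p = 0.95 in limma), and Mmp13, a collagenase, at 0.21 ± 0.0599 against 0.137 ± 0.0741 FPKM (SD, n = 4 each, adjusted p = 0.95 in limma). Adamts20, a protease of the matrix, had the opposite direction (0.218 ± 0.122 against 0.387 ± 0.183 FPKM, SD, n = 4 each, adjusted p = 0.95 in limma). P4ha3 and Adamts20 each had the other sign in 1 of the 23 alternatives. Secreted growth factor genes included Grem1, an antagonist of bone morphogenetic proteins, at 0.154, 0.304, 0.388 and 0.151 FPKM against 0.0742, 0.198, 0.12 and 0.0753 FPKM (adjusted p = 0.95 in limma), and none of the 16 had an unadjusted p under 0.05.

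In endothelium, Apold1, an immediate-early gene of vessel cells, was at 0.438, 0.508, 0.783 and 0.683 FPKM against 0.961, 0.767, 0.851 and 0.912 FPKM (adjusted p = 0.866 in limma). A single dexamethasone mouse lay under the highest dust mouse, and the mean was 1.29 ± 0.223 FPKM in rosoxacin mice (SD, n = 4). Prox1, the master factor of lymphatic vessels, had 0.508 ± 0.0977 against 0.396 ± 0.0599 FPKM (SD, n = 4 each, adjusted p = 0.95 in limma). Chst5, a sulfotransferase of mucosal surfaces, had 0.482 ± 0.0911 against 0.709 ± 0.0797 FPKM (SD, n = 4 each, adjusted p = 0.866 in limma), with the groups apart. In epithelium, Spdef, a goblet cell factor, had 0.447 ± 0.0765 against 0.593 ± 0.136 FPKM (SD, n = 4 each, adjusted p = 0.95 in limma), and Trp63, a basal cell factor, an adjusted p of 0.99 in limma. Of muscle genes Casq1, a calcium store protein, had 0.432 ± 0.0706 against 0.297 ± 0.0729 FPKM (SD, n = 4 each, adjusted p = 0.95 in limma).

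Among 24 solute carriers, 2 higher and 1 lower had an unadjusted p under 0.05, 12.5% against 5.38% of all genes. Slco4a1, a thyroid hormone and prostaglandin carrier, was at 0.429, 0.479, 0.378 and 0.428 FPKM with dust and at 0.244, 0.241, 0.285 and 0.282 FPKM with dexamethasone (adjusted p = 0.866 in limma). Slc25a34, a mitochondrial carrier, was at 0.416, 0.586, 0.553 and 0.574 FPKM against 0.738, 0.876, 0.764 and 0.636 FPKM (adjusted p = 0.866 in limma). In both genes the groups were apart, as in 4.07% of all genes tested. Of 38 ion channels tested, 1 higher and 3 lower had an unadjusted p under 0.05, 10.5% against 5.38% of all genes. The mean was higher in 17 and lower in 21 of them (14 and 24 after rescaling to TPM), with a median log2 change of -0.07. Kcnd1, a potassium channel, was at 0.178, 0.144, 0.151 and 0.0963 FPKM against 0, 0.0897, 0.0836 and 0.0811 FPKM (adjusted p = 0.911 in limma). Kcnd1 did not overlap between the groups, and 2.33% of all genes tested were likewise lower without overlap. Of 48 G protein-coupled receptors, 2 had an unadjusted p under 0.05 (4.17%, below the 5.38% of all genes), Cxcr2 and the taste receptor Tas1r1 (0.203 ± 0.0803 against 0.339 ± 0.0984 FPKM, SD, n = 4 each, adjusted p = 0.911 in limma).

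Of the 148 genes with an unadjusted p under 0.05, 90 carry predicted or clone names and 58 other names, beside 1776 and 973 of all 2749 genes tested. By GENCODE type, 28 pseudogenes were higher and 26 lower at that p among 1035 (5.22%), and 8 long intergenic RNAs were higher and 8 lower among 304 (5.26%), both near the 5.38% of all genes. Of the 199 genes of the type TEC (transcribed sequence to be experimentally tested), 1 was higher and 12 lower, 6.53% against 5.38% of all genes, and their summed level ran from 57.2 to 70.2 FPKM with dust and from 43.7 to 65.2 FPKM with dexamethasone. Of 60 microRNA precursors, 1 was higher and 2 were lower (5%).

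**Figure D5:**
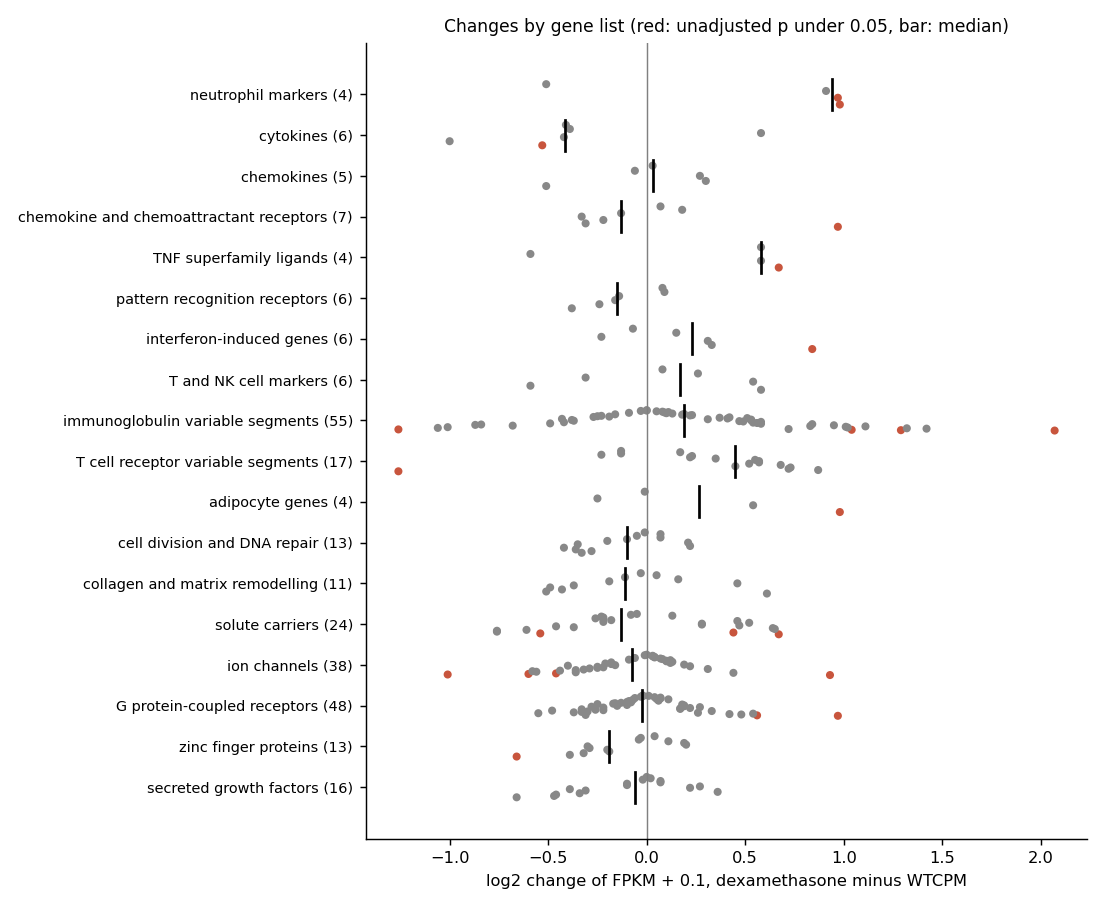
Log2 change of FPKM + 0.1 (dexamethasone minus WTCPM, x axis) of every tested gene in 18 lists (y axis, number of tested genes in parentheses), with unadjusted p under 0.05 in red and the median of the list as a black bar. The medians run from -0.41 in cytokines to 0.94 in neutrophil markers, and the long lists spread around 0.

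The same contrast was fitted for all features, loci included, on log2(FPKM + 1) for the 17355 with a mean of at least 1 FPKM. Again 0 passed (0%) in limma, with a smallest adjusted p of 0.135. At an unadjusted p under 0.05 stood 925 (5.33%), with 546 higher (3.15%) and 379 lower (2.18%), which is 59% higher, but 44.9% of 374 after rescaling to TPM, 34.9% of 970 with median-of-ratios scaling and 45.3% of 1078 after quantile normalisation. The groups were apart in 1027 features (5.92%), 578 higher (3.33%) and 449 lower (2.59%). The unnamed locus MSTRG.4653 was at 20.7, 17.6, 13.8 and 10.7 FPKM in WTCPM mice and at 7.44, 5.45, 5.68 and 7.13 FPKM in dexamethasone mice. The locus MSTRG.16170 was at 4.88, 6.28, 4.13 and 8.57 FPKM against 26.4, 11.4, 15 and 18.3 FPKM. Both separate the groups completely, with an adjusted p of 0.135 each in limma, and the files give neither a gene name. With the 2 groups fitted alone, 1795 features had an unadjusted p under 0.05 in limma, and only the locus MSTRG.11201 passed the adjusted threshold. With array quality weights, 687 of the features passed the adjusted threshold, 355 higher and 332 lower, and the cause was not tested.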

How the data were processed

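Lung RNA of 16 mice was measured in 32 samples, which are 2 sequencing lanes of the library of each mouse. StringTie 2.1.5, SAMtools 1.12, HISAT2 2.2.1, HISAT, R 4.0.4, FastQC and the build mm10 are named in the submitters' processing notes. The settings used with them are not stated there. Values are FPKM per transcript as the authors deposited them. The 2 lanes of a mouse were averaged and transcripts summed per gene identifier. Symbols and coordinates came from GENCODE M21 (mm10), which gave 25510 of 26305 annotated genes a symbol, and promoters from RefSeq. Groups were compared with limma 3.58.1 in R 4.3.3 (trend, all 4 groups in 1 fit, Benjamini-Hochberg over all genes tested), with pseudocounts of 0.1 and 1 and minimum means of 0.1 and 1 FPKM for annotated genes and all features. The procedure was tested on simulated data. Single genes were also tested by exact two-sided permutation.

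The naming rule took passing genes first, and, since fewer than 10 passed, the 12 with a higher and the 12 with a lower mean of smallest p, predicted genes excluded, and up to 4 members of smallest p from each of 62 lists. Part of the latter are named here. Some items are not reported here. The members and lists were chosen with earlier results of these data known. Depth was read from the step between low values: 7598 of 101425 values above 0 in genes with 1 transcript lay within 1% of 1 step. Python 3.11.15 and matplotlib 3.10.9 drew the figures.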

Additional observations from a re-analysis of the deposited data

Results flagged for a closer look

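Among the named genes, 190 groups of 4 mice were examined for a mouse far from the other 3, by the gap to its neighbour over the range of the group (limit 0.83), and 10 had one. Chance gives about 1 in 20 groups. In the WTCPM group these were mouse 4 in Igkv13-84 at 0.533 FPKM with the others listed at 0, mouse 2 in Gsdmcl-ps at 0.824 FPKM, mouse 3 in Il5ra at 0 and mouse 1 in Lep at 0.0471 FPKM with the others at 0. In the dexamethasone group mouse 2 was high in Calhm6 at 0.626 FPKM, in Ighv1-2 at 0.0931 FPKM with the others at 0, and in Prr11 at 0.355 FPKM. Dexamethasone mouse 1 was high in P2rx2 at 0.344 FPKM and Hrh2 at 0.502 FPKM, and Kcnd1 was listed at 0 in it.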

How the results depend on the processing

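The count of annotated genes past the adjusted threshold remained 0 in limma except with a pseudocount of 1 and without the trend, where it was 1 each (Gm42511, named after its values were seen, lower, at 0.353 against 0.0344 FPKM, adjusted p = 0.028 and 0.0274; the smallest adjusted p over the other alternatives ran from 0.0992 to 0.761). The count at an unadjusted p under 0.05 was 55 with a minimum 3 times higher and 475 without a minimum, as fewer and more genes were tested, and 111 to 193 with single mice left out. For all features the adjusted count was 1 with the 2 groups alone (MSTRG.11201, 13.5 against 6.76 FPKM, adjusted p = 0.0355 in limma) and 687 with array quality weights; the unadjusted count was 374 after rescaling to TPM, 2126 without a minimum, 1795 with the 2 groups alone and 4247 with array quality weights, and the cause was not tested. With mice left out it ran from 485 (without WTCPM mouse 1) to 1793 (without dexamethasone mouse 4), with 549 and 574 without dexamethasone mice 1 and 3.

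Replicate numbers were not used as pairs in the main fit. With the replicate block, 0 annotated genes and 0 features passed and 161 and 1130 had an unadjusted p under 0.05 in limma. Same-numbered mice correlated in their deviations at -0.138, 0.037, 0.029 and -0.013 over annotated genes. Over all features these were -0.443, 0.019, 0.242 and 0.077, beside 0.481 for WTCPM mouse 1 with dexamethasone mouse 4. Such values cannot show whether the animals were handled in pairs. Of 95 named genes, 75 kept their sign in all 23 alternatives, among them all 24 named by smallest p, and 20 did not; none passed the threshold in any. Depth limits the low genes most, since 0.1 FPKM is a few reads. Added after the data were seen was the implied depth as a covariate, with 0 genes passing.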
